A study of Mus musculus with 2 samples.

Results

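Il10 and the genes of a pair of transcription factors that act on it, Maf and Prdm1, were followed across the cells of tumour Treg libraries. Members were the rows of the count tables whose symbol is Il10, Maf or Prdm1, which gave 3 of 32285 listed genes in each library. Each library was made from Tregs (regulatory T cells, a CD4 lineage specified by the factor Foxp3 that holds immune responses in check) isolated from tumours of C57BL/6 mice aged 8 to 12 weeks. The WT library came from mice with intact Jmjd1c, which encodes a JmjC-domain protein, and the cKO library from mice lacking Jmjd1c in Tregs, and neither group received a stated treatment. The labels name neither the tumour model, the Cre driver and deleted exons, nor the number and sex of the animals. With 1 library per group no difference between genotypes could be tested, so every interval below is a 95% interval for counting error within a library. Intervals of summed levels and their ratios take transcripts as independent counts. They are too narrow where few cells hold many of the transcripts, as for Il10.

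Interleukin-10 is a secreted cytokine that restrains macrophages, dendritic cells and T cells through a receptor coupled to JAK1, TYK2 and STAT3. c-MAF, the product of Maf, is a leucine zipper activator that binds regulatory DNA of Il10 and is required for much of the IL-10 made by several T cell subsets. BLIMP-1, the product of Prdm1, is a zinc finger factor that represses genes of resting lymphocytes and marks effector Tregs, and Tregs without it make little IL-10.

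On build mm10, Il10 (ENSMUSG00000016529) spans chr1:131019845-131024974 on the plus strand. Maf (ENSMUSG00000055435) spans chr8:115682942-115707794 on the minus strand, where the antisense gene Gm15655 overlaps it; Gm15655 had 373 UMIs in WT and 83 in cKO. Prdm1 (ENSMUSG00000038151) spans chr10:44437177-44528501 on the minus strand. The promoter sequence of Prdm1 is shown because the other members' cells were also richer in Prdm1, and because it was the 1 member with an entry in the RefSeq promoter table (build GRCm38.p6). The 250 bases before the RefSeq start site, chr10:44458749-44458998 on the minus strand, lie inside the longer annotated gene and read 5′ to 3′ as below, with the match to TGANTCA in capitals.

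Prdm1 promoter: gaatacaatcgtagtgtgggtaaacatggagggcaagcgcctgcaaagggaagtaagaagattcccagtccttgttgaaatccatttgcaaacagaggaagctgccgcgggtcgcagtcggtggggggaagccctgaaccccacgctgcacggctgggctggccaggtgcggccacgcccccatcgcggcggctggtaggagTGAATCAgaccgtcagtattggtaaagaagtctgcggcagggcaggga

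The motifs below were searched on both strands of the 300 bases from 250 before to 50 after the start. TGANTCA, the AP-1 motif with any base (N) at its centre, had 1 match, 48 bases before the start, and 7.81% of 32851 promoters of that length held it. The match reads TGAATCA, with A at the centre where the AP-1 consensus has C or G. TGCTGAC, the core letters of the MAF recognition element, had 0 matches, against 4.67% of promoters. GAAAGT, the core letters of the BLIMP-1 motif, also had 0 matches, against 14.3% of promoters. A complete MAF element can contain an AP-1 motif, but no match of another motif overlapped the TGANTCA match here.

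Cells were classed by their UMIs (unique molecular identifiers, 1 per captured transcript). A Treg cell had at least 1 UMI of Cd3e and Cd3g, at least 6 of Foxp3, Il2ra, Ikzf2 and Ctla4, at most 1 of Cd8a and Cd8b1 and at most 2 of Lyz2 and C1qa. This class held 3240 WT cells (84.3% of 3842 kept cells; median 8546 UMIs) and 2834 cKO cells (70.4% of 4026; median 6427 UMIs). The 9 Treg markers, 4 of which the class rule itself used, summed to 7824 CPM (UMIs scaled to a common class total) in WT and 10815 CPM in cKO. Foxp3 itself was found in 30.9% of WT and 34.4% of cKO Treg cells, and Cd4, which the rule did not use, in 77.0% and 66.5%. The 8 monocyte or macrophage markers summed to 21.8 CPM in WT and 54.5 CPM in cKO Treg cells, with 0 of 8 absent in either. Among Treg cells without any Lyz2 or C1qa UMI the log2 ratios of cKO over WT were 1.99 for Il10, 0.72 for Maf and 0.26 for Prdm1, and those of all Treg cells are given below. Jmjd1c stood at 88.6 CPM in WT and 74.1 CPM in cKO Treg cells, which checks nothing because 3′ tags can lie outside the deleted part. Xist was found in 97.8% of WT and 0.247% of cKO Treg cells and Y-linked transcripts in 0% and 74.3%, so the animals behind the libraries differed in sex, and sex and genotype cannot be told apart. Of all barcodes, 2 were shared by the libraries.

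In Treg cells Il10 was higher in cKO than in WT by a wide margin, Maf by a moderate one and Prdm1 by little. Il10 stood at 21.4 CPM in WT (19.99 to 23.0; 817 UMIs) and 91.9 CPM in cKO (88.1 to 95.8; 2163 UMIs), a ratio of 4.29 (3.95 to 4.65). Maf stood at 539 CPM in WT (531 to 546; 20536 UMIs) and 875 CPM in cKO (863 to 887; 20594 UMIs), a ratio of 1.62 (1.59 to 1.66). Prdm1 stood at 44.2 CPM in WT (42.1 to 46.4; 1685 UMIs) and 53.4 CPM in cKO (50.5 to 56.4; 1257 UMIs), a ratio of 1.21 (1.12 to 1.30). The intervals of the libraries did not overlap for any of the 3 genes. At this depth small differences clear counting error too: a gene outside the members at a ratio of 1.07 also had intervals apart. The share of all genes without overlap was not counted. Fewer cells with a transcript and fewer transcripts per cell both lower such a summed level, and the cell-by-cell counts below separate them.

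Set against all genes, 1 of the 3 members passed 2-fold. On a log2 scale with 5 CPM added to both libraries, which shrinks the differences of low genes, Il10 was at 1.87, Maf at 0.69 and Prdm1 at 0.25. Among 5158 genes that averaged 20 CPM or more in Treg cells, 1.38% were at least 2-fold higher in cKO, 1.24% at least 2-fold lower and 2.62% past 2-fold in either direction. The median of these genes was 0.02, and 90% of them lay between -0.53 and 0.62. Il10 therefore ranked 9th from the top, Maf 192nd, just outside that range, and Prdm1 1143rd, well within it. The antisense Gm15655 went the other way from Maf in Treg cells, at 8.58 CPM in WT and 3.14 CPM in cKO. Whether the counting used strand is not given in the sources used here.

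Outside the Treg class the members had different patterns, as the plot of levels by cell class shows. CD8 T cells (cytotoxic T cells; at least 3 UMIs of Cd8a and Cd8b1) numbered 213 in WT and 403 in cKO. Most WT cells of this class (180) also held at least 6 UMIs of the Treg genes, against 196 in cKO, so the class was split at that limit. In CD8 T cells below it, Il10 had 0 UMIs in 33 WT cells and 4 UMIs in 207 cKO cells (2.11 CPM; 0.574 to 5.40). Maf stood there at 7.08 CPM in WT (1.46 to 20.7) and 16.3 CPM in cKO (11.1 to 23.2), and Prdm1 at 9.44 CPM (2.57 to 24.2) and 8.43 CPM (4.82 to 13.7). All 3 genes were thus far below their Treg levels in CD8 T cells with few Treg transcripts.

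**Figure D1:**
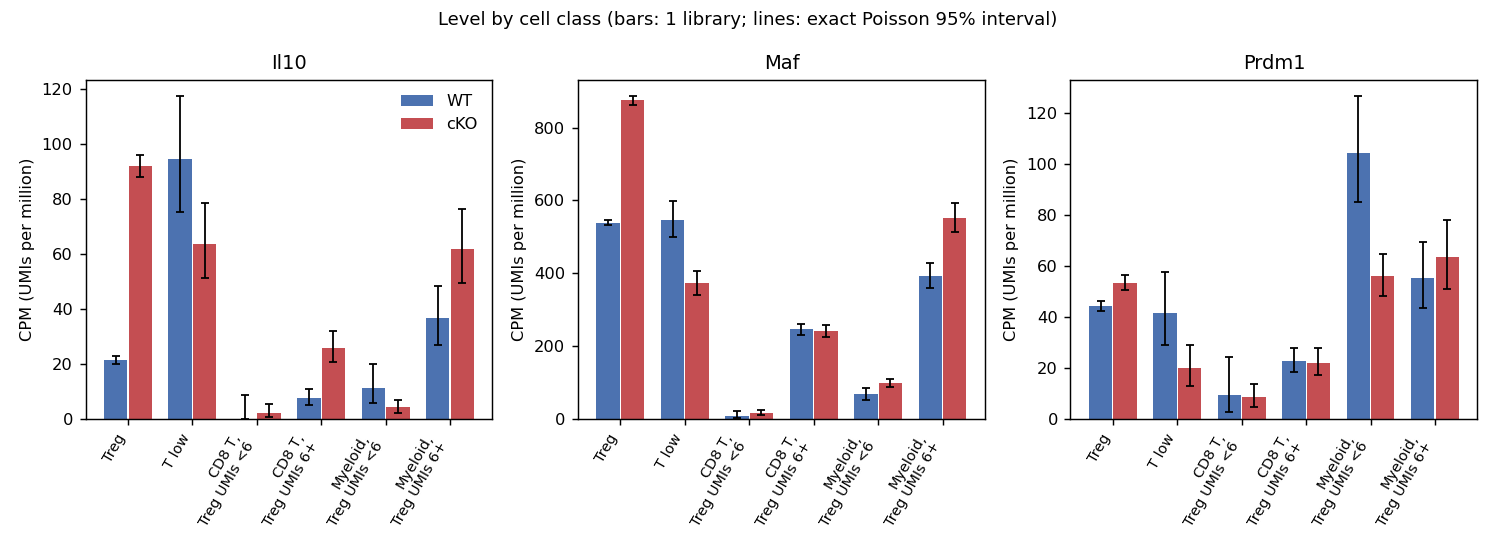
Level of Il10, Maf and Prdm1 (CPM) in WT (blue) and cKO (red) by cell class; each bar is 1 library and each line its exact Poisson 95% interval. CD8 T and myeloid cells are split at 6 UMIs of Foxp3, Il2ra, Ikzf2 and Ctla4; Maf was at 539 and 875 CPM in Treg cells against 7.08 and 16.3 CPM in CD8 T cells below that limit.

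CD8 T cells with at least 6 UMIs of the Treg genes held more of all 3 members. Maf was at 246 CPM in WT (231 to 261) and 240 CPM in cKO (224 to 258), and Prdm1 at 22.8 CPM (18.5 to 27.9) and 22.1 CPM (17.2 to 27.8), so neither differed between libraries beyond counting error. Il10 did differ, at 7.53 CPM in WT (5.12 to 10.7) and 25.8 CPM in cKO (20.6 to 32.0). These droplets were deeper than the Treg class, with median UMIs of 19913 (WT) and 14172.5 (cKO), and whether they hold more than 1 cell was not tested. Over the whole CD8 T class Maf was lower in cKO, at 157 CPM (147 to 168) against 223 CPM in WT (210 to 238), a ratio of 0.704 (0.641 to 0.773). That ratio is 0.979 (0.890 to 1.08) in the cells above the limit and 2.31 (0.720 to 11.8) in those below it, and the share of cells above it was 180 of 213 in WT and 196 of 403 in cKO.

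Myeloid cells (monocytes and macrophages; at least 10 UMIs of Lyz2 and C1qa) were the class in which Prdm1 was at its highest in WT. They numbered 103 in WT and 317 in cKO. In the myeloid cells with under 6 UMIs of the Treg genes, Prdm1 stood at 104 CPM in 52 WT cells (85.0 to 127) and 55.8 CPM in 247 cKO cells (48.1 to 64.4). Maf stood there at 67.5 CPM (52.2 to 85.8) and 99.1 CPM (88.7 to 110), and Il10 at 11.2 CPM (5.61 to 20.1; 11 UMIs) and 4.18 CPM (2.28 to 7.01; 14 UMIs). Prdm1 and Maf thus went in opposite directions between the libraries in these cells. Among all myeloid cells with at least 5 UMIs of C1qa, a complement gene of macrophages, Il10 was at 50.6 CPM in 32 WT cells (37.2 to 67.2) and 16.9 CPM in 94 cKO cells (11.53 to 23.8). A single WT cell of that class held 21 of its 47 Il10 UMIs.

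T cells low in Treg transcripts (at most 5 UMIs of the Treg genes, otherwise as the Treg class) were few, at 100 in WT and 218 in cKO, and all 3 members were lower there in cKO. Il10 was at 94.6 CPM in WT (75.2 to 117) and 63.7 CPM in cKO (51.0 to 78.6). Without thinning, 21.0% of WT (13.5 to 30.3) and 14.2% of cKO cells (9.87 to 19.6) held an Il10 UMI, and these intervals overlap. Maf was at 547 CPM (498 to 598) and 372 CPM (340 to 406), and Prdm1 at 41.5 CPM (29.1 to 57.5) and 19.8 CPM (13.0 to 28.8). The WT value of Il10 in this class was above that of WT Treg cells, 21.4 CPM, and close to that of cKO Treg cells. This class was shallow, with medians of 4923.5 and 4602.5 UMIs, and markers of other cells were present. Fibroblast markers summed to 1719 CPM in WT, each found in 3% of its cells, and 22.0 CPM in cKO. Dendritic markers summed to 2706 CPM in WT and 5093 CPM in cKO, chiefly Cd74 and H2-Aa, and Xcr1 was at 0 in both. The part of these in the Il10, Maf and Prdm1 values was not tested.

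Taking whole classes in order of level, Il10 in WT ran from T low cells through myeloid cells (25.9 CPM; 19.7 to 33.3) and Treg cells to CD8 T cells (6.83 CPM; 4.64 to 9.69), and myeloid and Treg cells did not differ beyond their intervals. In cKO the Treg class came first, followed by T low, myeloid (21.1 CPM; 17.2 to 25.7) and CD8 T cells (17.0 CPM; 13.6 to 21.0), the last 2 within each other's intervals. Much of the myeloid and CD8 T Il10 came from droplets with at least 6 Treg UMIs: 49 of 60 WT and 86 of 100 cKO myeloid UMIs, and 31 of 31 WT and 83 of 87 cKO CD8 T UMIs. Below that limit myeloid Il10 (11.2 and 4.18 CPM) was under the Treg level in both libraries. Maf in WT was alike in T low and Treg cells and lower in myeloid (256 CPM; 235 to 277) and CD8 T cells, whereas in cKO Treg cells stood above T low cells and these above myeloid (232 CPM; 218 to 246) and CD8 T cells. Prdm1 in WT was highest in myeloid cells (75.9 CPM; 65.1 to 87.9), followed by Treg and T low cells, which did not differ beyond their intervals, and CD8 T cells (21.6 CPM; 17.5 to 26.3). In cKO Prdm1 was alike in myeloid (58.0 CPM; 51.3 to 65.3) and Treg cells and lower, and alike, in T low and CD8 T cells (17.0 CPM; 13.6 to 21.0). Dendritic-like cells held 0 Il10 UMIs in 19 WT and 12 cKO cells, which allows a share of cells with a UMI of up to 17.6% and 25% among the 17 and 12 of them deep enough to be thinned. Maf and Prdm1 stood at 26.3 and 30.3 CPM in the WT dendritic-like cells and at 24.2 and 10.4 CPM in those of cKO. NK-like cells (1 in WT, 32 in cKO) held 1 Il10, 20 Maf and 1 Prdm1 UMIs in cKO and none in WT. Cells in no class (166 in WT, 206 in cKO) had Il10 at 13.5 and 47.2 CPM, Maf at 352 and 448 CPM and Prdm1 at 35.5 and 35.9 CPM.

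To compare single cells at 1 depth, each cell was thinned at random to 4000 UMIs. Treg cells with fewer UMIs, 95 in WT and 332 in cKO, were left out. Of the remaining Treg cells, 5.34% of 3145 in WT (4.58 to 6.19) and 19.8% of 2502 in cKO (18.2 to 21.4) held an Il10 UMI, a gap of 14.4 percentage points (12.7 to 16.2). A Maf UMI was found in 70.7% of WT (69.1 to 72.3) and 82.8% of cKO cells (81.3 to 84.3), and a Prdm1 UMI in 15.9% (14.7 to 17.3) and 19.2% (17.7 to 20.8). Without thinning the shares were 8.55% and 27.1% for Il10, 85.8% and 89.0% for Maf, and 30.4% and 29.5% for Prdm1, so the order of the libraries for Prdm1 depends on equal depth.

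A UMI can also come from free RNA, so the shares in CD8 T and myeloid cells with few Treg transcripts are set beside those of Treg cells. These cells may express the genes themselves, so their shares do not measure free RNA alone. In thinned CD8 T cells with under 6 Treg UMIs, Il10 was found in 0 of 32 WT cells, which allows a share of up to 9.38%, and in 1.05% of 190 cKO cells (0.128 to 3.75). Maf was found there in 3.13% and 4.74%, and Prdm1 in 3.13% and 3.68%. In myeloid cells with under 6 Treg UMIs the Il10 share was 1.96% of 51 WT and 2.60% of 231 cKO cells. The Maf share there was 15.7% and 24.7%, and the Prdm1 share 25.5% and 19.9%. The median depths before thinning were 13983 UMIs in WT and 7591 in cKO for these CD8 T cells and 8546 and 6427 for Treg cells. The Treg shares of Il10 and Maf were above those of both comparison classes in both libraries. For Il10 in WT the myeloid interval (0.0496 to 10.4) overlapped that of Treg cells (4.58 to 6.19). The Treg share of Prdm1 was above that of these CD8 T cells but below that of the myeloid cells, with overlapping intervals. Between Treg and these CD8 T cells the intervals were clear of each other for all 3 genes in cKO and for Maf in WT. The few WT CD8 T cells left those of Il10 and Prdm1 overlapping.

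The higher Il10 level in cKO went with more cells holding a transcript and not with more transcripts in each of them, while for Maf both were higher. Among thinned Treg cells with an Il10 UMI, 54.8% of 168 in WT (46.9 to 62.4) and 56.4% of 495 in cKO (51.9 to 60.8) held exactly 1. A further 20.8% and 22.2% held 2, and 5.36% (2.48 to 9.93) and 5.25% (3.46 to 7.60) held 6 or more. The mean per cell with a UMI was 2.07 in WT and 2.11 in cKO. For Maf the mean was 3.74 in WT and 4.73 in cKO, the share of Maf cells with 1 UMI was 28.8% (26.9 to 30.8) against 18.6% (17.0 to 20.4), and the share with 6 or more was 20.5% (18.8 to 22.2) against 31.3% (29.3 to 33.3). For Prdm1 the mean was 1.25 in both libraries. Il10 transcripts were gathered in few cells: the 1% of unthinned Treg cells with the most held 40.4% of all Il10 UMIs in WT and 23.9% in cKO, against 6.99% and 5.18% for Maf and 13.1% and 10.3% for Prdm1. The highest count in 1 cell was 34 Il10 UMIs in WT and 108 in cKO.

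**Figure D2:**
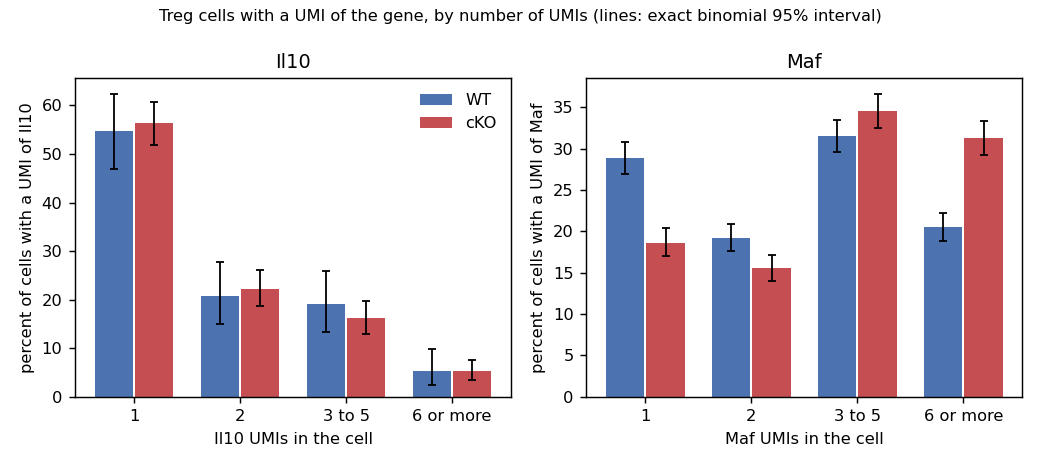
Treg cells with a UMI of Il10 (left) or Maf (right), thinned to 4000 UMIs, by the number of UMIs they held, in WT (blue) and cKO (red), as percent of the cells with a UMI with exact binomial 95% intervals. The libraries overlap for Il10 in every bin (54.8% and 56.4% at 1 UMI), whereas for Maf the bin of 6 or more holds 20.5% in WT and 31.3% in cKO.

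Il10 was more often found in cells with more Maf, in both libraries, as the plot of the Il10 share by level shows. In WT the share of cells with an Il10 UMI was 1.30% at 0 Maf UMIs (921 cells), 1.87% at 1, 4.22% at 2, 6.43% at 3 to 5, 11.2% at 6 to 9 and 32.2% at 10 or more (143 cells; 24.6 to 40.5). In cKO it was 5.35% at 0 (430 cells), 11.4% at 1, 16.8% at 2, 21.5% at 3 to 5, 32.9% at 6 to 9 and 35.9% at 10 or more (223 cells; 29.6 to 42.5). The share was higher at each step in both libraries, and at every level up to 9 the cKO interval lay above that of WT, while at 10 or more they overlapped. Cells with at least 1 Maf UMI exceeded those without by 5.71 points in WT (4.30 to 7.01) and by 17.4 points in cKO (14.3 to 20.1), ratios of 5.38 and 4.26. A thinned cell with 0 UMIs may still express the gene.

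The Il10 share was also higher in cells with a Prdm1 UMI. In WT the Il10 share was 4.35% of 2644 cells at 0 Prdm1 UMIs, 9.51% of 410 at 1, 14.1% of 64 at 2 and 18.5% of 27 at 3 or more. In cKO it was 18.4% of 2022 at 0, 24.7% of 377 at 1, 29.5% of 88 at 2 and 26.7% of 15 at 3 or more, the last with an interval from 7.79 to 55.1. Cells with a Prdm1 UMI exceeded those without by 6.23 points in WT (3.54 to 9.35) and 7.23 points in cKO (2.995 to 11.7), ratios of 2.43 and 1.39. The cKO difference depends on the depth, at 2.14 points when thinned to 2000 UMIs and 11.95 points without thinning, whereas that of WT was 5.94 and 7.85 points.

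**Figure D3:**
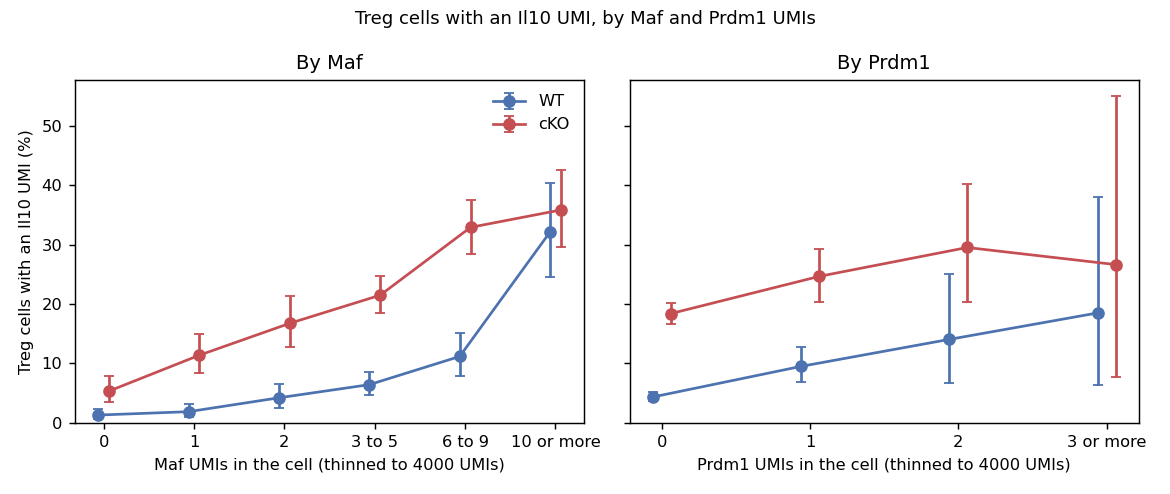
Share of Treg cells with an Il10 UMI (percent, exact binomial 95% intervals) by the number of Maf (left) and Prdm1 (right) UMIs in the same cell, thinned to 4000 UMIs, in WT (blue) and cKO (red). By Maf the share goes from 1.30% to 32.2% in WT and from 5.35% to 35.9% in cKO, and the libraries overlap only at 10 or more Maf UMIs.

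The regulators were found together. A Maf UMI was present in 80.2% of WT cells with a Prdm1 UMI (76.5 to 83.6) and 68.9% of those without (67.1 to 70.7), and in 93.3% (90.7 to 95.4) and 80.3% (78.5 to 82.0) in cKO. Conversely, the share with a Prdm1 UMI went from 10.7% at 0 Maf UMIs to 35.7% at 10 or more in WT, and from 7.44% to 32.7% in cKO, and the Prdm1 intervals of the libraries overlapped at every Maf level. Of the cells with an Il10 UMI, 92.9% in WT and 95.4% in cKO also held Maf, and 31.5% and 24.8% held Prdm1.

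With both regulators found, the Il10 share was 12.4% of 402 WT cells (9.37 to 16.1) and 27.0% of 448 cKO cells (22.9 to 31.4). With Maf alone it was 5.82% of 1822 (4.79 to 6.99) and 21.6% of 1624 (19.6 to 23.7). With Prdm1 alone it was 3.03% of 99 (0.629 to 8.60) and 6.25% of 32 (0.766 to 20.8), and with neither 1.09% of 822 (0.502 to 2.07) and 5.28% of 398 (3.30 to 7.95). Cells with Prdm1 alone therefore did not differ from cells with neither beyond counting error in either library, while Maf alone exceeded neither in both. At 6 or more Maf UMIs, a Prdm1 UMI went with 22.5% of 120 against 16.1% of 336 in WT and with 35.2% of 179 against 33.5% of 469 in cKO, and these intervals overlap.

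The gap between the libraries in the Il10 share was present at equal levels of both factors. When the 4 combinations of WT cells were weighted as in cKO, the WT share went from 5.34% to 6.22% and the gap from 14.4 to 13.6 points. With Maf taken in steps from 0 to 10 or more UMIs, in place of found or not, the WT share became 7.75% and the gap 12.0 points. With Prdm1 in steps the gap was 14.2 points, and with Maf in steps and Prdm1 found or not it was 12.0 points. The weighting is limited by the few UMIs per cell, since cells of 1 UMI count can differ in their true level.

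Treg states were defined from UMIs of other genes in the thinned cells. Il10 was higher in cKO in 9 of 9, with ratios from 1.26 to 31.7. The states overlap, and the 3 made by Gzmb together hold every cell, so they are not separate observations. In the state marked by Il1rl1, the receptor for the alarmin IL-33, Il10 was at 10.3 CPM in 341 WT cells and 88.1 CPM in 539 cKO cells. Among cycling cells (at least 2 UMIs of Mki67 and Top2a) it was at 19.5 and 79.2 CPM. In cells with at least 3 UMIs of Klf2 and S1pr1, genes of recirculating lymphocytes, it was at 23.9 and 104 CPM. The highest ratio, in Ccr8 cells, rests on 3 Il10 UMIs in WT against 64 in cKO. In cells with at least 5 UMIs of the interferon genes Ifit1, Ifit3 and Isg15 it was at 23.2 and 123 CPM. Heat-shock cells (at least 10 UMIs of Hspa1a and Hspa1b) had the highest Il10 level in cKO, at 190 CPM, against 101 CPM in WT.

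Maf was higher in cKO in 6 of the 9 states, with ratios from 1.19 in the Klf2 and S1pr1 state to 1.82 in cycling cells, and lower in the other 3. For Prdm1 the interval of the ratio spanned 1 in 8 of 9 states. The 3 states in which Maf was lower were those made by Gzmb, the gene of granzyme B, a protease of cytotoxic granules. Gzmb stood at 484 CPM in WT and 4144 CPM in cKO Treg cells. Of thinned Treg cells, 12.8% in WT and 68.0% in cKO held 5 or more Gzmb UMIs. That level has no upper limit, so Gzmb was not matched between the libraries within it.

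Within each Gzmb level Maf was slightly lower in cKO than in WT. At 0 Gzmb UMIs Maf stood at 518 CPM in 2128 WT cells and 416 CPM in 380 cKO cells, a ratio of 0.804 (0.739 to 0.874). At 1 to 4 Gzmb UMIs it stood at 766 and 692 CPM, a ratio of 0.903 (0.839 to 0.972), and at 5 or more at 1257 and 1175 CPM, a ratio of 0.935 (0.890 to 0.982). Maf therefore differed more between Gzmb levels, by more than 2-fold from lowest to highest in both libraries, than between libraries at 1 level. Prdm1 stood at 44.2 and 38.2 CPM, at 56.0 and 41.0 CPM and at 70.4 and 69.7 CPM in the same order, with only the middle ratio, 0.732 (0.540 to 0.984), clear of 1.

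The summed Il10 level remained higher in cKO within each Gzmb level, by a smaller ratio than over all Treg cells. It stood at 10.46 and 23.0 CPM at 0 Gzmb UMIs, a ratio of 2.20 (1.45 to 3.29), at 35.3 and 54.6 CPM at 1 to 4, a ratio of 1.55 (1.14 to 2.10), and at 107 and 135 CPM at 5 or more, a ratio of 1.26 (1.07 to 1.49). The ratio over all thinned Treg cells was 3.77 (3.33 to 4.27). In cells with at least 5 Gzmb and at least 6 Maf UMIs the Il10 share was 34.3% of 143 WT and 36.6% of 557 cKO cells, a difference of 2.36 points (-6.94 to 11.1). With 1 to 5 Maf UMIs at that Gzmb level it was 12.1% of 206 WT and 22.3% of 966 cKO cells. That difference was 10.1 points (4.26 to 15.1), and at 0 Maf UMIs it was 7.07 points (-2.08 to 12.6).

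**Figure D4:**
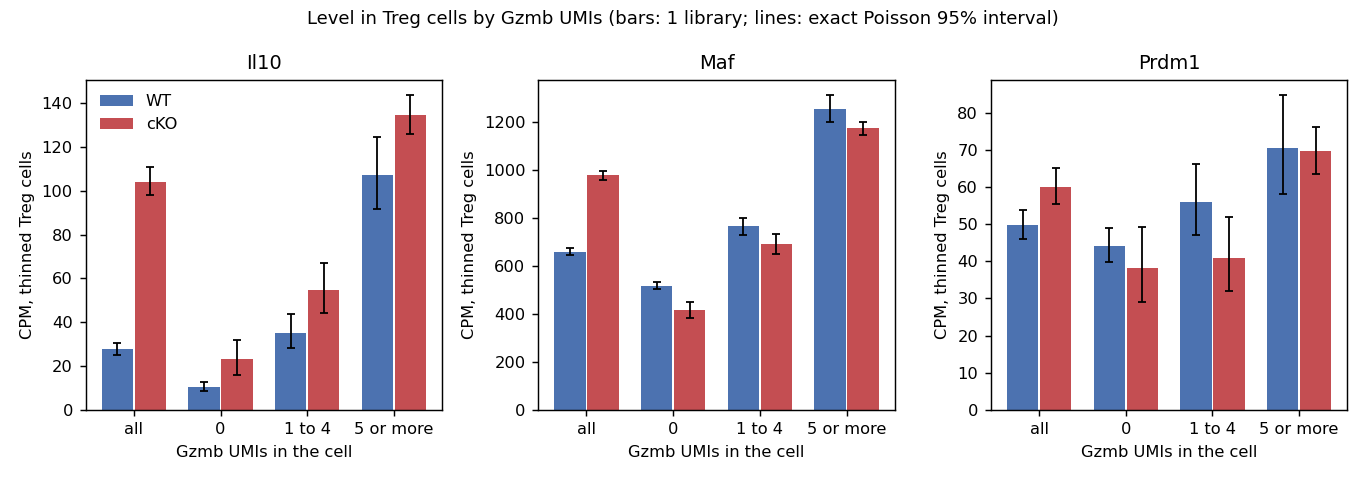
Level of Il10, Maf and Prdm1 (CPM) in thinned Treg cells, all and by the Gzmb UMIs of the cell, in WT (blue) and cKO (red), with exact Poisson 95% intervals. Over all cells each gene is higher in cKO; within the 3 Gzmb levels Maf is lower in cKO (ratios of 0.804, 0.903 and 0.935) and Il10 remains higher (2.20, 1.55 and 1.26).

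WT Treg cells were then weighted to the Gzmb levels of cKO, a step chosen after seeing the data. The weighting equalised the shares of the levels but not Gzmb within the open level of 5 or more. The Il10 share became 14.2% in WT and the gap to cKO 5.54 points. The ratio of Il10 levels went from 3.77 to 1.30, that of Maf from 1.48 to 0.921 and that of Prdm1 from 1.20 to 0.938. Adding Maf in steps to the Gzmb levels gave a gap of 5.96 points. The same weighting by other genes that differed between the libraries left gaps of 11.9 points by Lag3, 13.7 by Socs3, 14.4 by Batf and 14.8 by Il1rl1. These genes had lower levels than Gzmb. They were split at 0, 1 and 2 or more UMIs, or found or not for Il1rl1, so their gaps cannot be ranked against that by Gzmb. Thinned to 2000 UMIs, with the Gzmb limits unchanged, the Il10 ratio after weighting was 1.06. Gzmb in myeloid cells differed too: of those with under 6 Treg UMIs, 1.96% of 51 WT and 16.9% of 231 cKO cells held a Gzmb UMI, but 0 of 51 and 1.30% held 5 or more. Whether these UMIs came from free RNA was not tested. Gzmb was also more frequent in cKO in CD8 T cells with under 6 Treg UMIs, where 15.6% of 32 WT and 45.8% of 190 cKO cells held 5 or more.

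The genes most like each member were those with the highest log2 ratio of CPM between Treg cells with and without its UMI, by the lower of the 2 libraries, among 4672 genes with at least 20 CPM in both. For Il10 the first 4 were Ccl4 (3.90 in WT, 2.08 in cKO) and Ccl3 (1.87 and 1.96), which encode chemokines, Calca (1.43 and 1.32), which encodes calcitonin and the neuropeptide CGRP, and the coinhibitory receptor gene Lag3 (1.48 and 1.19). In all, 0.642% of these genes in WT and 0.0856% in cKO were at least 2-fold higher in Il10 cells. Maf ranked 11th, at 1744 CPM in Il10 cells and 600 CPM in other cells of WT and 1471 and 857 CPM in cKO. Prdm1 ranked 61st, at 109 and 46.5 CPM in WT and 79.8 and 55.2 CPM in cKO. In a second random thinning these 4 genes were again among the first 5, and Maf and Prdm1 ranked 16th and 29th.

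For Maf the gene ranked first was Il10, at 37.3 CPM in Maf cells and 4.34 CPM in other cells of WT and at 122 and 18.0 CPM in cKO. Also among the first 5 were Ccr1 (1.53 and 1.34) and Ccr2 (1.51 and 1.26), genes of chemokine receptors, and Gzmb (1.59 and 1.21), and Prdm1 ranked 13th. At least 2-fold higher in Maf cells were 0.278% of genes in WT and 0.514% in cKO. For Prdm1 the first 5 were the chaperone gene Hspa1a (1.18 in WT, 0.73 in cKO), Ccl3 (0.70 and 0.71), Il10 (1.45 and 0.62), Ikzf3, which encodes the zinc finger factor Aiolos (0.67 and 0.60), and Maf (0.65 and 0.56), but only 2 of these kept a place in the first 5 in a second thinning, in which Ccl3 ranked 1635th. The share at least 2-fold higher in Prdm1 cells was 0.0642% in WT and 0.0% in cKO. Hspa1a is a gene of the stress response, and in heat-shock cells Prdm1 stood at 101 CPM in WT and 78.5 CPM in cKO, its highest among the states in both.

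The other transcription factors tied to Il10 in T cells differed less between the libraries than Il10. Of 26 listed, 23 averaged 5 CPM or more in Treg cells; none passed 2-fold in either direction, where 0.991% of 8678 genes at that level were at least 2-fold higher and 1.2% lower. Their median log2 ratio was 0.30, against -0.02 over all 8678 genes, and 17 were above 0, against 46.9% of all 8678 genes. The largest were Batf (0.94; 175 CPM in WT, 339 CPM in cKO), a partner of the IRF factors, Ikzf3 (0.84; 41.6 and 78.2 CPM), Nfil3 (0.78; 107 and 187 CPM) and Nfatc2 (0.70; 24.9 and 43.4 CPM), which encodes a factor activated by T cell receptor signals. Maf, at 0.69, lay beside Nfatc2. Between cells with and without an Il10 UMI, by the lower of the 2 libraries, Ikzf3 stood at 0.70, Ahr, which encodes a ligand-activated receptor, at 0.65 and Batf at 0.03, against 0.78 for Maf and 0.49 for Prdm1.

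**Figure D5:**
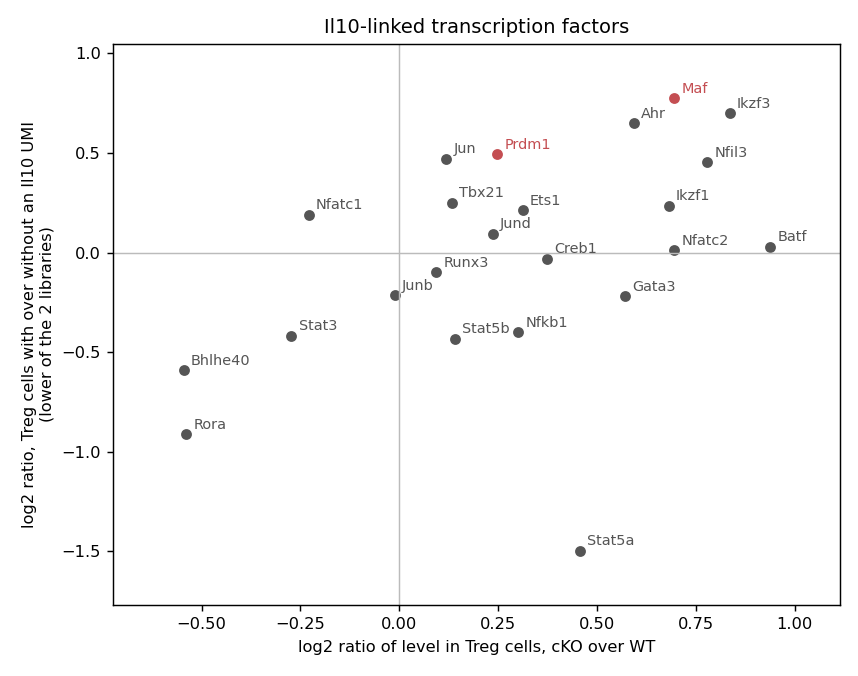
Maf and Prdm1 (red) and the listed transcription factors with at least 20 CPM in both libraries (grey): log2 ratio of level in Treg cells, cKO over WT, on the x axis, and log2 ratio of level in Treg cells with over without an Il10 UMI, lower of the 2 libraries, on the y axis. Maf is highest on the y axis at 0.78, whereas Batf is farthest right at 0.94 and near 0 on the y axis.

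Most receptors that act upstream of Il10 stood higher in cKO. All 14 listed were measured, 13 were above 0, the median log2 ratio was 0.48 and 1 passed 2-fold: Il1rl1 (1.20; 46.6 CPM in WT, 114 CPM in cKO). Of all 8678 genes, 46.9% were above 0 and 0.991% at least 2-fold higher. The list includes Il2ra, 1 of the genes of the class rule. Il12rb2, a chain of the IL-12 receptor, was at 0.99, the costimulatory receptor gene Icos at 0.97 (897 and 1760 CPM) and Il6st, which encodes the shared chain gp130, at 0.96.

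The receptor for IL-10 and its signalling genes had a median of 0.33, with 2 of 9 past 2-fold higher and none lower, where 0.991% and 1.2% of all 8678 genes were. These were Socs3 (1.84; 57.5 CPM in WT, 219 CPM in cKO), a feedback inhibitor induced by STAT3, and Bcl3 (1.40; 42.0 and 119 CPM), which encodes a nuclear IκB protein. The feedback inhibitor gene Socs1 was at 0.99 and the receptor chain gene Il10rb at 0.69. Stat3 itself was lower in cKO, at 599 CPM in WT and 495 CPM in cKO.

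Genes listed for a coinhibitory module tied to Maf and Prdm1 went both ways. Of 10 listed, 7 were measured, with a median of -0.15. Lag3 was at 1.80 (80.0 CPM in WT, 290 CPM in cKO) and Pdcd1, which encodes PD-1, at -1.27 (461 and 188 CPM). Cd274, which encodes PD-L1, was at 0.81 and Ctla4, 1 of the genes of the class rule, at 0.76.

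Genes of resting T cells that BLIMP-1 is known to oppose went both ways: of 8 measured of 11 listed, 5 were above 0 and 3 below, with a median of 0.64 and 2 past 2-fold higher. Of all 8678 genes, 46.9% were above 0, and with 8 genes nothing is read from the difference. Among those past 2-fold higher was Klf2, which encodes a factor of quiescent lymphocytes, at 1.45 (87.3 CPM in WT, 247 CPM in cKO). Lef1 was at 0.95, and Il7r, the gene of the IL-7 receptor chain, at -0.67 (297 and 184 CPM).

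Of the MAF family, 3 of 6 listed relatives were measured and none passed 2-fold: Mafk at -0.38, Mafg at 0.28 and Maff at 0.11, with a median of 0.11. Of 9 other suppressive cytokine and antagonist genes, 4 were measured and all 4 were above 0, with a median of 0.66. Of all 8678 genes, 46.9% were above 0 and 0.991% at least 2-fold higher, and with 4 genes nothing is read from the difference. Il1rn, which encodes the IL-1 receptor antagonist, was past 2-fold at 1.29 (4.83 CPM in WT, 19.0 CPM in cKO). Ebi3, a subunit shared by IL-27 and IL-35, was at 0.83, Tgfb1 at 0.50 and Areg, which encodes the growth factor amphiregulin, at 0.12.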

How the data were processed

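Droplet 3′ single-cell libraries, 1 per genotype, were made after magnetic selection and a fluorescence sort, per the labels' protocols. The deposited files hold UMI counts per gene and barcode, made by the authors with Cell Ranger 5.0.1 on mm10, per the submitters' processing notes. Their annotation, strand setting and doublet handling were not given in the sources used here. Of the matrices, the WT matrix held 3905 barcodes and 49063944 UMIs and the cKO matrix 4105 and 37666195. Barcodes with at least 500 genes and under 10% mitochondrial UMIs were kept (3842 and 4026). No doublet caller was run; Treg results were recomputed without the 5% of cells with the most UMIs. Classes follow UMI limits, 4 cKO cells met both the CD8 T and the myeloid limits and were counted in neither, and no clustering was used.

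UMIs were summed per class and library as CPM, whose intervals are exact Poisson; ratios have conditional binomial intervals without a pseudocount; shares have Clopper-Pearson intervals; differences of shares combine these as Newcombe's method does. Log2 ratios used a pseudocount of 5 CPM. The limit for a share of 0 is 3 counts of the total. Thinning to 4000 UMIs drew without replacement, 1 seed per cell. The scripts were tested on simulated data. Python 3.11.15, numpy 2.4.6, scipy 1.17.1, pandas 2.3.3, matplotlib 3.10.9, and R 4.3.3 with edgeR 4.0.16 (TMM scaling alone) were used. Named genes are the 3 members, up to 4 of each of 7 lists with the largest absolute log2 ratio, the 5 genes most like each member and genes of the class and state limits; Jmjd1c, Gm15655, Stat3 and Ahr are named in addition. T cell receptor, immunoglobulin, mitochondrial and ribosomal protein genes, unnamed models, Xist, Tsix and Y-linked genes were outside the likeness ranking. Some genes that this choice names are not reported here. The members and lists were chosen with earlier results of these data known. Alternatives covered pseudocount, scaling, gene minimum, thinning, cell filter and class limits.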

Additional observations from a re-analysis of the deposited data

Results flagged for a closer look

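In the whole T low, CD8 T and myeloid classes, 5 ratios of a member lay below 1 with their interval. The Treg ratio of the same member lay above 1 with its interval. How many of all genes do so was not counted, so nothing is read from the number. With 1 library per group these differences were not tested. In T cells low in Treg transcripts the ratio of cKO over WT was 0.674 for Il10 (4.29 in Treg cells), 0.680 for Maf (1.62) and 0.476 for Prdm1 (1.21). In CD8 T cells it was 0.704 for Maf, and in myeloid cells 0.765 for Prdm1. Split at 6 Treg UMIs, the myeloid Prdm1 ratio was 0.536 (0.419 to 0.689) below the limit and 1.15 (0.832 to 1.58) above it. The Maf ratio in CD8 T cells was 2.31 (0.720 to 11.8) below and 0.979 (0.890 to 1.08) above. The T low class held 100 WT and 218 cKO cells, and WT Il10 there came from 21 cells. By the share of cells with an Il10 UMI, the T low intervals of the libraries overlapped.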

How the results depend on the processing

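Over 264 alternatives to 27 results, 226 stayed within counting error (counts within 1.5 times), 38 moved and 0 were called reversed. A reversal could be called only for log2 results past 2-fold, differences of shares and the ratios at equal shares of the Gzmb levels. The medians of the coinhibitory list and the MAF family did change sign, as given below. The log2 ratio of Il10 ranged from 1.80 to 2.05, that of Maf from 0.53 to 0.74 and that of Prdm1 from 0.23 to 0.34. The highest for Il10 came with a pseudocount of 1 CPM (2.05), then with at least 10 Treg UMIs (2.01). For Maf the ratio was 0.53 without cycling cells, 0.66 without the 5% of cells with the most UMIs, 0.73 under TMM and 0.74 with at least 10 Treg UMIs. Genes past 2-fold ranged from 133 to 190. Thinned to 2000 UMIs, shares of WT and cKO cells were 4.15% and 14.1% for Il10, 55.6% and 68.3% for Maf and 8.73% and 10.9% for Prdm1; without thinning 8.55% and 27.1%, 85.8% and 89.0%, and 30.4% and 29.5%. Without cycling cells the WT Maf share was 72.5%. The Il10 difference by Maf was 9.84 points in cKO at 2000 UMIs, and 7.19 and 20.4 points in WT and cKO unthinned; by Prdm1 in cKO it was 2.14 and 11.95 points. With both factors found, the cKO Il10 share was 17.7% and 36.6%, and the reweighted WT share 4.94% and 8.68%, at 2000 UMIs and unthinned.

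At equal shares of the Gzmb levels, the Il10 ratio was 1.06 at 2000 UMIs and 1.48 without cycling cells. The Maf ratio was 0.957 at 2000 UMIs. Over all alternatives, which were chosen after seeing the data, Maf ranged from 0.898 to 0.957 and Prdm1 from 0.854 to 0.949. With all listed genes that had a UMI, list medians were 0.19 for Il10-linked factors, 0.048 for the coinhibitory list, 0.41 for resting T cell genes and 0.12 for suppressive cytokines. The coinhibitory median was -0.27 without the cells with the most UMIs and -0.33 without cycling cells, so its sign is not settled, and the MAF family ranged from -0.038 to 0.15. The resting T cell median was 0.88 with a pseudocount of 1 CPM. The cause of these shifts was not tested. No paired analysis was possible because each group has 1 library.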
